A study of Homo sapiens with 6 samples.

Results

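AP-1 is a family of transcription factors that bind DNA in pairs through a basic leucine zipper. The 10 genes described here encode the FOS proteins (FOS, FOSB, FOSL1 and FOSL2), the JUN proteins (JUN, JUNB and JUND), and the related factors ATF3, BATF2 and BATF3. They were chosen by gene symbol from a table of 60498 genes, and all 10 were among the 15126 genes whose count averaged 10 or more per library. RNA was sequenced from 3 lines of SKOV3, a human ovarian cancer cell line, each with 1 control library and 1 library from cells given 2′3′-cGAMP, the cyclic dinucleotide that binds and activates STING1, so the series holds 6 libraries. The parental line carries a WT and a HAQ allele of STING1 (WT/HAQ), HAQ being a common haplotype of this gene with changed amino acids. The WT/- and HAQ/- lines are single clones of it that kept only the WT or only the HAQ allele after CRISPR/Cas9 deletion with a pair of guides, lentiviral delivery and puromycin selection. Treated cells received 10 µg/mL of 2′3′-cGAMP for 30 min in a digitonin buffer that opens the plasma membrane and then rested for 4 h in fresh medium. Whether control cells went through the same buffer is not described, so cGAMP and handling cannot be told apart, and with 1 clone per genotype neither can genotype and clone.

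FOS proteins cannot pair with themselves and need a JUN partner, whereas JUN proteins form pairs both with each other and with FOS proteins. FOS-JUN pairs favour a DNA site called the TRE, and pairs that contain ATF proteins favour the longer CRE site. Many of these genes are immediate-early genes, which serum, stress or growth factors switch on within minutes through MAP kinases and the serum response factor. ATF3 is induced by stress and often represses inflammatory genes. BATF proteins lack an activation domain of their own, pair with JUN proteins and can recruit interferon regulatory factors to DNA.

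The genes lie on 5 chromosomes (build GRCh38, GENCODE 44 annotation). Chromosome 1 holds JUN (chr1:58776845-58784048, minus strand), ATF3 (chr1:212565334-212620777, plus strand) and BATF3 (chr1:212686417-212699840, minus strand), the last pair separated by 65639 bp. Chromosome 19 holds JUNB (chr19:12791486-12793315), FOSB (chr19:45467995-45475179), both on the plus strand, and JUND (chr19:18279694-18281622, minus strand). On the minus strand of chromosome 11 lie BATF2 (chr11:64987945-64997018) and FOSL1 (chr11:65892049-65900573). FOSL2 (chr2:28392448-28417317) and FOS (chr14:75278826-75282230) are both on the plus strand. The 3 JUN genes have a single exon, BATF2 and BATF3 have 3 exons and the other 5 genes have 4 exons in their canonical transcript. JUNB shares 259 bp of exon with HOOK2 on the opposite strand, and whether the counting used strand is not stated in the sources used here. The highest HOOK2 count was 780, against a lowest JUNB count of 5379.

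Since AP-1 and ATF proteins can act on their own genes, the promoters of 8 of the 10 genes were read from RefSeq windows that span 250 bases before to 50 bases after a transcription start (build GRCh38.p14). FOSL1 and BATF3 had no window. On both strands, the TRE, written TGANTCA, was found in the FOSL2 window only, whereas 7.71% of all 35116 windows held one. The CRE, written TGACGTCA, was found in the JUND window only, with 1.85% of all windows holding one. Stretches of 30 bases are shown from 5′ to 3′ on the strand of the gene, with the matched letters in capitals. The first 2 are the exact matches. The other 4 hold a CRE with 1 mismatch and were searched for after the exact matches had been seen.
FOSL2: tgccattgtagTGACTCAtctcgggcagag
JUND: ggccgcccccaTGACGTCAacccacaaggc
JUN: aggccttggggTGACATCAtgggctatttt
ATF3: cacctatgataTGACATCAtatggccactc
BATF2: ctaggacagaaTGACATCAaggttgccacg
FOSB: caaggggcgggTGACGTAAgcaggggggcg
These stretches lie at chr2:28392851-28392880 for FOSL2, chr19:18281804-18281833 for JUND, chr1:58784096-58784125 for JUN, chr1:212565273-212565302 for ATF3, chr11:64990391-64990420 for BATF2 and chr19:45467925-45467954 for FOSB. The FOSL2 match begins 4 bases after the start, within the transcribed part, and the JUN match spans bases -67 to -60 from it. JUN, ATF3 and BATF2 shared the letters TGACATCA, which 2.61% of all windows held. These letters were taken from the matches of the same genes, so the share describes them and tests nothing. With up to 1 mismatch, a CRE was found in 6 of the 8 genes, against 11.8% of all windows. FOSL2, with near matches not shown, is among the 6. The 8 genes had 9 windows, so the count of genes and the share of windows are unlike units. The other ATF3 window, 6257 bp from the start of the canonical transcript, held no such match. The ATF3 window shown starts 43354 bp and the BATF2 window 6694 bp from the start of the canonical transcript in GENCODE, so for these genes the window may not be the promoter in use. No window of the 8 genes held the core of the interferon-stimulated response element (3.57% of all windows), the GAS element TTCNNNGAA (7.66%), the CArG box of the serum response factor (1.29%) or a kappaB motif (11.3%). A missing match says only that these letters are not in the windows read.

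The libraries held 12444791 to 17608427 counts. Values are given as normalized counts, that is counts scaled by TMM (trimmed mean of M values) to a common library size of 15604154, and intervals are 95% intervals that cover counting error only. STING1, the edited gene, stood at 669 normalized counts in the WT/HAQ control, 353 in the WT/- control and 213 in the HAQ/- control, and at 1780.2, 553 and 403 with cGAMP. The table does not separate its alleles. IFNB1, the interferon-β gene, had 5 counts in the control and 1325 with cGAMP in WT/HAQ, 2 and 1934 in WT/-, and 6 and 15 in HAQ/-. The interferon-stimulated genes ISG15 and IFIT1 were higher with cGAMP in each line, with log2 folds of at least 5.15. All 6 epithelial marker genes exceeded a mean count of 10 and none of 6 leukocyte markers did. The epithelial markers also moved with the groups. Their summed level was 87700.0 to 107243 normalized counts in the controls and 72247 to 89148 with cGAMP. In WT/HAQ, WT/- and HAQ/-, 2, 2 and 0 of the 6 were lowered at least 1.5-fold (12.3%, 8.79% and 5.79% of all genes). In the controls of these lines KRT7, a keratin gene, stood at 11666, 7879 and 3589.9. The markers PAX8, at 6751, 9391 and 4613, and ERBB2, at 67744, 51708 and 69247, had other orders. With cGAMP, PAX8 had the lowest log2 folds of the 6 (-1.78, -0.92 and -0.49), while those of EPCAM were 0.07, 0.10 and 0.13. By edgeR none of the 6 passed the adjusted threshold, with 3 lower at an unadjusted p below 0.05, and DESeq2 called 2 lower. Their part in the results was not tested.

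The 10 genes spanned a wide range of levels in the control libraries. Per kilobase of exon, the scale on which genes can be compared, the highest in the parental control were FOSL1 with 5659.5, JUN with 4252 and JUNB with 3864 normalized counts. ATF3 with 1499.9 and JUND with 1114 followed, then FOSL2 with 885, FOS with 698 and FOSB with 574. BATF3 with 46.8 and BATF2 with 3.14 were the lowest. With the longest transcript as length, ATF3 stood at 2851, FOS at 1057, FOSL2 at 944 and FOSB at 844, so that FOS came before FOSL2 and the middle of the order depends on the length used. FOSL1 was thus the most abundant FOS transcript in unstimulated SKOV3 cells, and BATF2 was nearly silent, with 10, 18 and 11 raw counts in the WT/HAQ, WT/- and HAQ/- controls.

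The clones differed from the parental line before any cGAMP was given. In the control libraries, 9 of the 10 genes had their highest level in WT/-, an intermediate level in WT/HAQ and the lowest in HAQ/-, an order found in 22.7% of all genes. The exception was BATF2, whose intervals overlapped among all 3 controls. Against the parental control, WT/- had 7 genes raised at least 1.5-fold and none lowered, where 13.0% of all genes were raised and 9.90% lowered. HAQ/- had 6 genes lowered and none raised against the same library, where 8.64% of all genes were lowered and 7.40% raised. Directly between the clones, 9 of the 10 were at least 1.5-fold lower in HAQ/- than in WT/- (15.3% of all genes), JUND being the gene that was not. The 7 raised in WT/- and the 9 lower in HAQ/- both count BATF2. Its log2 intervals there span 0, at -0.27 to 2.20 and -2.04 to 0.35. The median log2 ratio of the 10 genes was 0.74 for WT/- and -0.63 for HAQ/- over the parent, whereas that of all genes was 0.00 and -0.02. Both ratios share the parental library, no line has a second control library, and no test within the controls was possible.

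**Figure D1:**
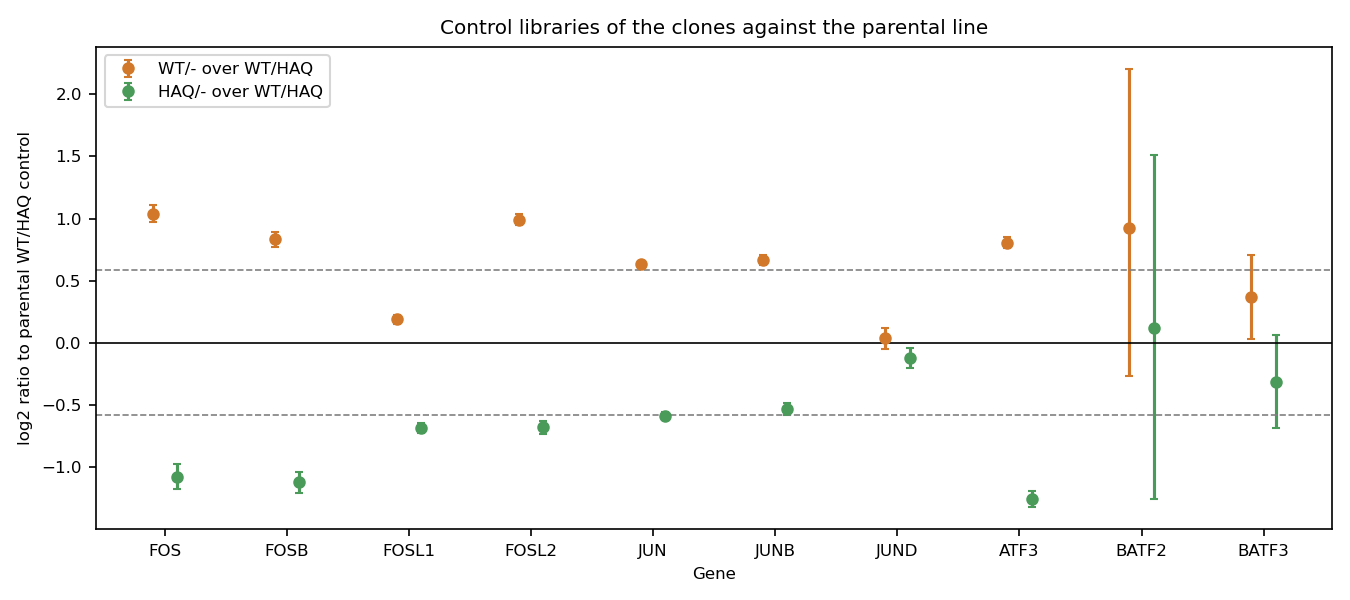
The vertical axis gives the log2 ratio of each clone's control library to the parental WT/HAQ control for the 10 genes on the horizontal axis, with bars for the 95% counting interval and dashed lines at 1.5-fold. WT/- points lie above 0 and HAQ/- points below 0 for every gene but BATF2, with WT/- highest for FOS at 1.04, HAQ/- lowest for ATF3 at -1.26, and JUND near 0 at 0.04 and -0.12.

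The difference between the clones was widest for FOS, ATF3 and FOSB. FOS, the prototype immediate-early partner of JUN, stood at 4569 normalized counts in the WT/- control, 2225 in WT/HAQ and 1054 in HAQ/-, a 4.34-fold difference between the clones. ATF3 stood at 10485, 5997 and 2505 in the same order, a 4.19-fold difference. FOSB, a close homologue of FOS, stood at 5679.7, 3187 and 1462, a 3.88-fold difference.

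FOSL2, JUN and JUNB showed the same order with smaller ratios between the clones, of 3.18, 2.33 and 2.30. FOSL1 was at 12173 in WT/-, 10679.6 in WT/HAQ and 6639.8 in HAQ/-, so that it was close to the parent in WT/- (log2 ratio 0.19, interval 0.15 to 0.22) and lower in HAQ/- (-0.69, interval -0.73 to -0.64). JUND, the most constantly expressed JUN gene, was at 2203, 2149.7 and 1974. Its WT/- and WT/HAQ controls did not differ beyond counting error (log2 ratio 0.04, interval -0.05 to 0.12). BATF3, a factor known from dendritic cells, was at 155, 120.2 and 96.8, and its HAQ/- and WT/HAQ controls did not differ beyond counting error either (-0.31, interval -0.69 to 0.06).

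**Figure D2:**
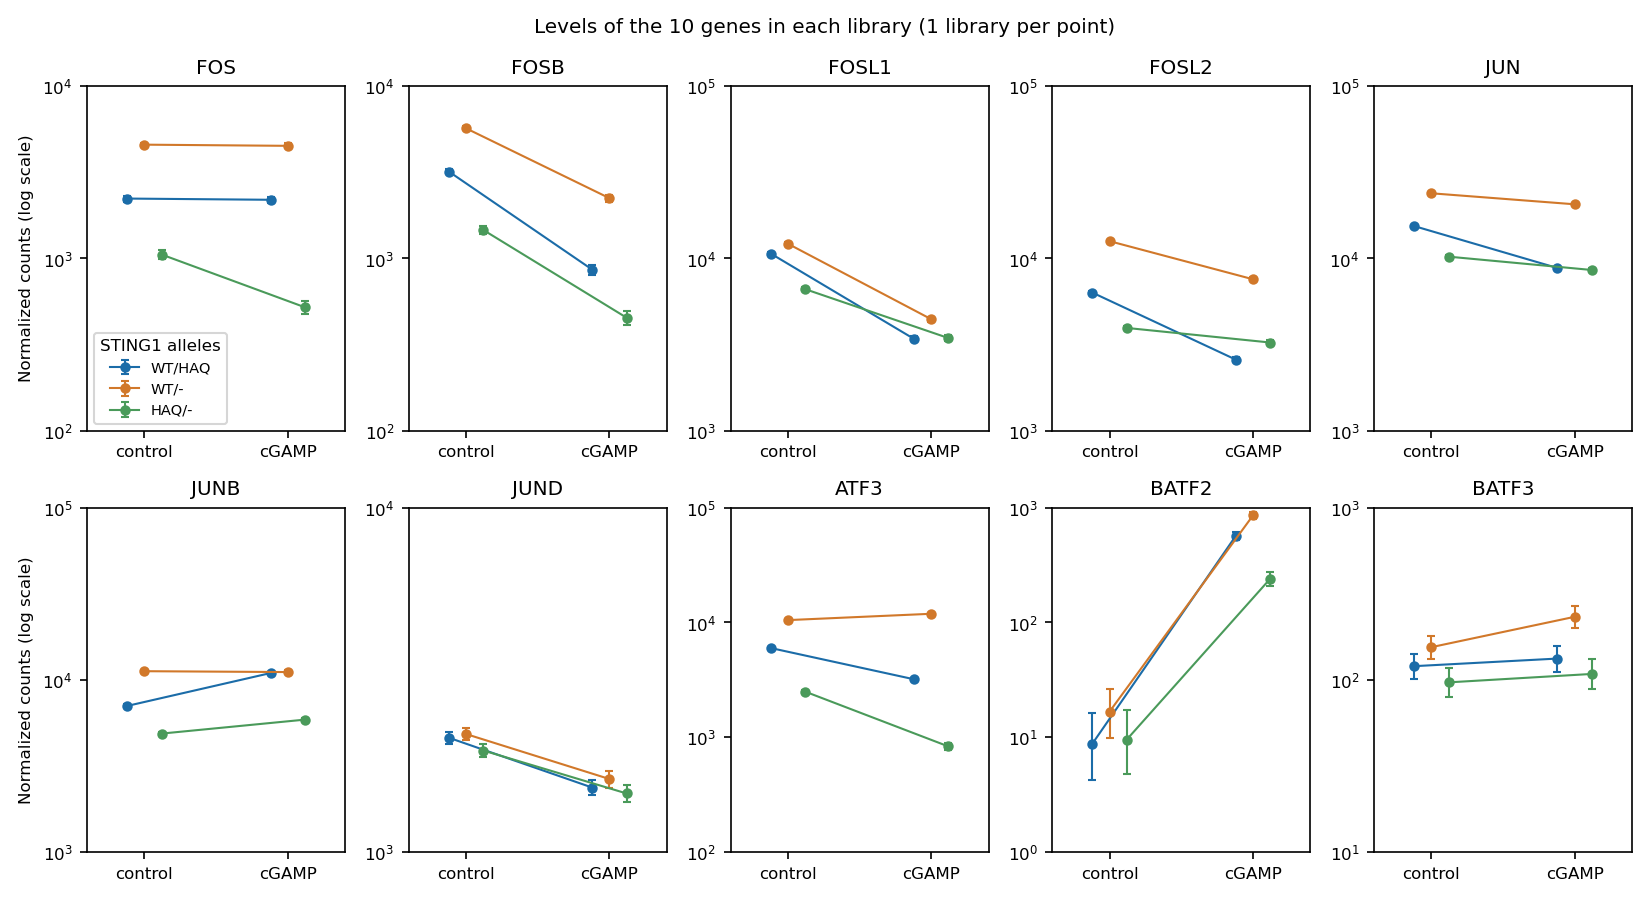
Each panel gives the normalized counts of 1 gene on a log axis in the control and the cGAMP library of the 3 lines, 1 library per point, with the 95% counting interval as bars. The WT/- line is on top in every control panel. BATF2 goes from below 17 to at least 239.7 in each line. FOSB, FOSL1, FOSL2, JUN and JUND go down beyond counting error in each line.

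With cGAMP, FOSB and FOSL1 were at least 1.5-fold lower in each line, the JUN genes went different ways, and BATF2 was many-fold higher. Of the 10 genes, 2 were raised and 5 lowered at least 1.5-fold in WT/HAQ, where 12.9% and 12.3% of all genes were. In WT/- the counts were 2 raised and 3 lowered, against 11.9% and 8.79% of all genes. In HAQ/- they were 1 raised and 4 lowered, against 6.77% and 5.79%. In direction alone, 6 genes were lower and 2 higher in all 3 lines, against 26.5% and 23.8% of all genes. Among these, the folds of FOS in WT/HAQ and WT/- and of BATF3 in WT/HAQ and HAQ/- were within counting error. BATF2 was the one gene raised in each line, and FOSB and FOSL1 were the genes lowered in each line, where 3.12% of all genes were raised and 1.35% were lowered in all 3. The median log2 fold of the 10 genes was -0.64 in the parent, -0.12 in the WT/- clone and -0.35 in the HAQ/- clone, whereas that of all genes lay between -0.01 and 0.00. Each line has 1 library per treatment, so these folds have no replicate check, and in bulk RNA fewer cells that express a gene and less RNA per cell cannot be told apart.

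FOSB was lower with cGAMP in each line. In WT/HAQ its level went from 3187 to 861 normalized counts, in the WT/- clone from 5679.7 to 2236, and in the HAQ/- clone from 1462 to 453. The log2 folds were -1.89 (interval -1.99 to -1.78), -1.34 (-1.42 to -1.27) and -1.69 (-1.85 to -1.53). All 3 cGAMP values lay below the control of their own line, yet the WT/- cGAMP value lay above the HAQ/- control.

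FOSL1 encodes FRA1, a FOS protein without the activation domain of FOS that is known for its part in carcinoma invasion. It went from 10679.6 to 3416 in WT/HAQ, from 12173 to 4444 in WT/- and from 6639.8 to 3455 in HAQ/-. The 3 cGAMP values were all below the lowest control, and they lay closer together than the controls did. The log2 folds were -1.64 (-1.70 to -1.59), -1.45 (-1.51 to -1.40) and -0.94, the last with an upper limit of -0.88.

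FOSL2, which encodes the related protein FRA2, went from 6336 to 2591, from 12594 to 7576 and from 3955 to 3255 in the same order of lines. The log2 fold of the parent was -1.29 (-1.35 to -1.23), that of WT/- was -0.73 (-0.78 to -0.69) and that of HAQ/- was -0.28 (-0.35 to -0.21). The treated WT/- library still held more FOSL2 than the untreated parent.

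FOS did not follow the other FOS genes in every line. It was at 2225 in the control and 2189 with cGAMP in WT/HAQ, and at 4569 and 4498 in WT/-, with log2 folds of -0.02 (-0.11 to 0.06) and -0.02 (-0.09 to 0.04). In HAQ/- it went from 1054 to 521, a log2 fold of -1.02 (-1.17 to -0.86). The WT/- fold exceeded the HAQ/- fold by 0.99 (0.83 to 1.16) on the log2 scale, and 9.50% of all genes differed at least as far between these lines.

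JUN, the main substrate of the JUN kinases, was at 15410.3 in the control and 8799 with cGAMP in WT/HAQ, a log2 fold of -0.81 (-0.84 to -0.77). It was at 23872 and 20610.1 in WT/- and at 10245 and 8572 in HAQ/-, with log2 folds of -0.21 (-0.24 to -0.18) and -0.26 (-0.30 to -0.22). The fold beyond 1.5 was thus seen in the parental line alone, and the log2 folds of the clones differed from each other by 0.05 (-0.01 to 0.10).

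JUNB, a JUN protein that can oppose JUN at shared sites, was the JUN gene with higher values under cGAMP. It went from 7071 to 10964 in WT/HAQ, a log2 fold of 0.63 (0.59 to 0.67), and from 4887 to 5888 in HAQ/-, a log2 fold of 0.27 (0.21 to 0.32). In WT/- it was at 11241 and 11111, a log2 fold of -0.02 (-0.06 to 0.02). The treated parental library thus came close to the level that WT/- held with and without cGAMP.

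JUND had the most even folds of the 10 genes. It went from 2149.7 to 1542 in WT/HAQ, from 2203 to 1632 in WT/- and from 1974 to 1482 in HAQ/-. The log2 folds were -0.48 (-0.57 to -0.39), -0.43 (-0.53 to -0.33) and -0.41 (-0.51 to -0.32), and no pair of lines differed beyond counting error.

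**Figure D3:**
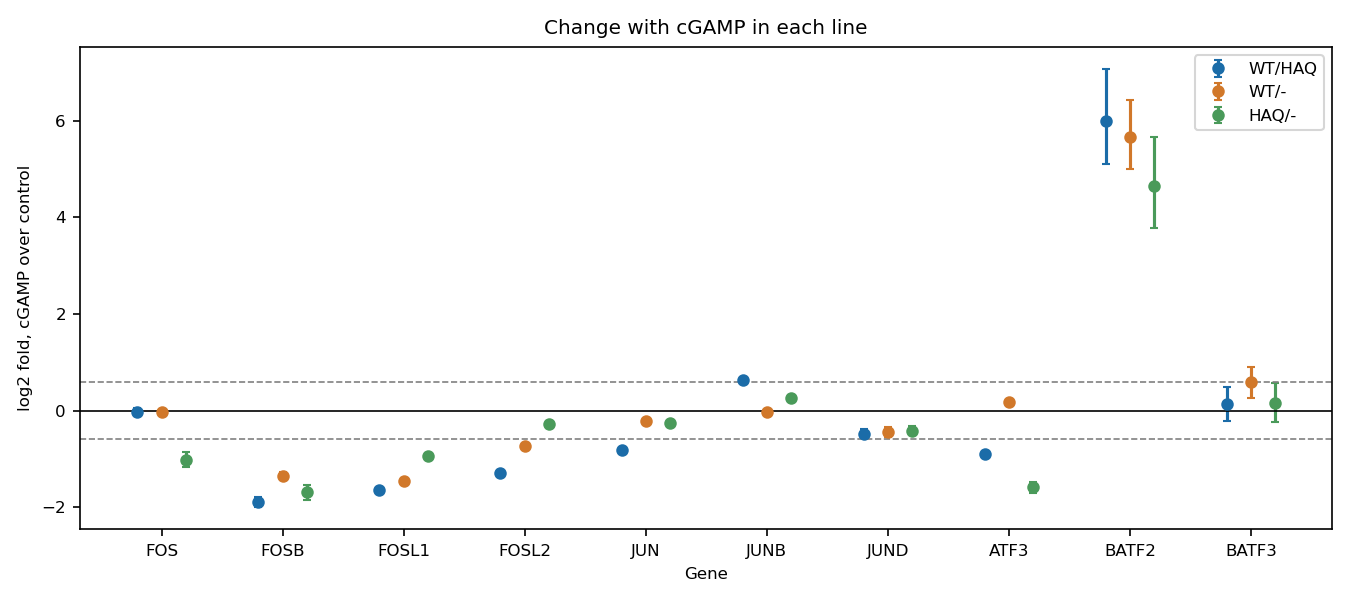
The vertical axis gives the log2 fold of the cGAMP over the control library in each line for the 10 genes on the horizontal axis, with bars for the 95% counting interval and dashed lines at 1.5-fold. BATF2 stands apart at 4.64 or higher, FOSB and FOSL1 lie below the lower line in each line, and ATF3 runs from 0.18 in WT/- to -1.58 in HAQ/-.

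Added up per kilobase, FOS-group transcripts were lower with cGAMP while the JUN-group sum with cGAMP was 0.999, 0.909 and 0.974 times its control in the parent, WT/- and HAQ/-. The 4 FOS genes summed to 7817 normalized counts per kilobase in the WT/HAQ control and 3014 with cGAMP, to 10666 and 5227 in WT/-, and to 4665 and 2530.4 in HAQ/-. The log2 folds of this sum were -1.37, -1.03 and -0.88. The 3 JUN genes summed to 9230.4 and 9219 in WT/HAQ, 13872 and 12605 in WT/-, and 6521 and 6351 in HAQ/-, with log2 folds of 0.00, -0.14 and -0.04. The ratio of the FOS sum to the JUN sum was therefore 0.847 in the parental control against 0.327 with cGAMP, 0.769 against 0.415 in WT/-, and 0.715 against 0.398 in HAQ/-. These are transcript levels, and the protein pairs were not measured.

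The makeup of both sums differed between control and cGAMP. FOSL1 made up 72.4% of the FOS sum in the WT/HAQ control and 60.1% with cGAMP, 60.5% and 45.1% in WT/-, and 75.4% and 72.3% in HAQ/-. The share of FOS was 8.93% and 22.8% in WT/HAQ and 13.4% and 27.0% in WT/-, but 7.09% and 6.46% in HAQ/-. In the parental line JUN and JUNB exchanged rank, with JUN at 46.1% of the JUN sum in the control and 26.3% with cGAMP, and JUNB at 41.9% and 65.0%. With cGAMP, JUNB also stood above JUN in HAQ/-, at 50.7% against 37.2%. In WT/- the shares were 48.2% and 45.1%, an order that turned with the longest transcript as length, where JUN stood at 6328 and JUNB at 6072 normalized counts per kilobase. JUND made up 6.71% to 15.7% of the sum over the 6 libraries.

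**Figure D4:**
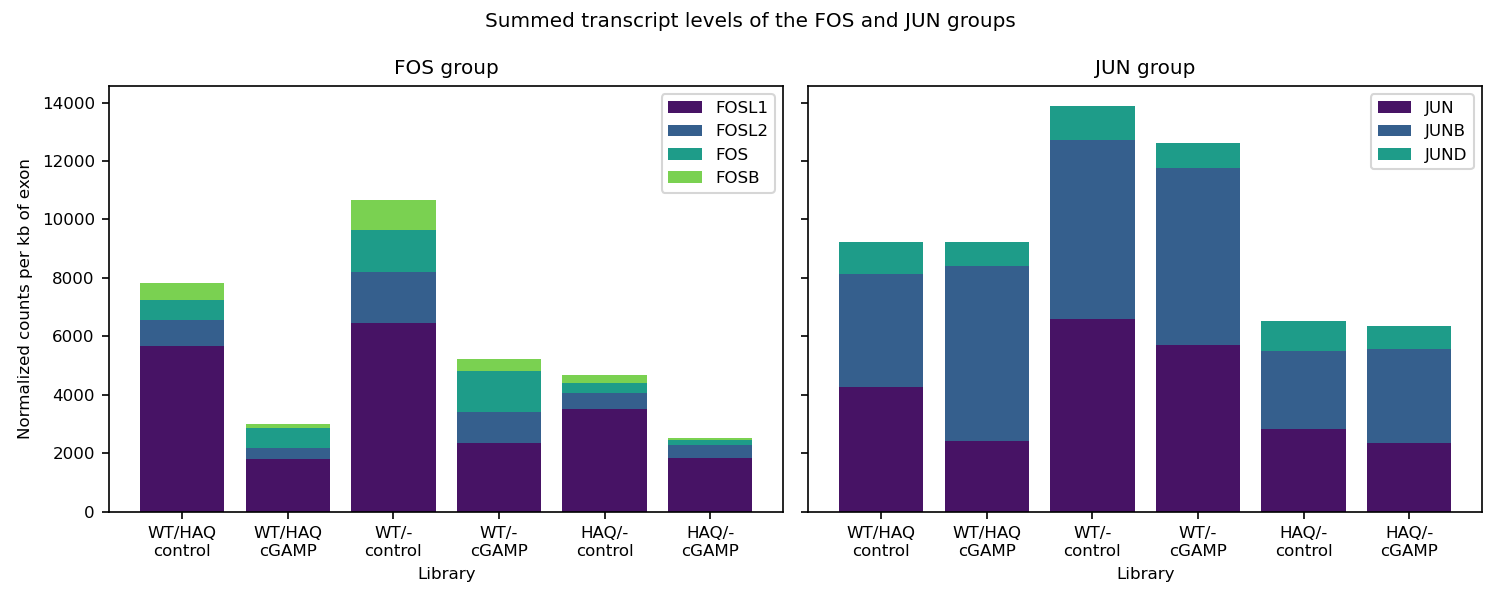
Stacked bars give normalized counts per kilobase of exon for the 4 FOS genes (left) and the 3 JUN genes (right) in each of the 6 libraries, 1 library per bar. The FOS bars are lower with cGAMP in each line, from 7817 to 3014 in WT/HAQ, whereas the JUN bars differ by at most 0.14 on the log2 scale and JUNB takes the larger part in the cGAMP libraries of WT/HAQ and HAQ/-.

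ATF3 was the 1 gene of the 10 with cGAMP folds of both directions beyond counting error. It was at 5997 in the control and 3206 with cGAMP in WT/HAQ, a log2 fold of -0.90 (-0.96 to -0.84), and at 2505 and 835 in HAQ/-, a log2 fold of -1.58 (-1.70 to -1.47). In WT/- it was at 10485 and 11902, a log2 fold of 0.18 (0.14 to 0.22). The WT/- fold exceeded the HAQ/- fold by 1.77 (1.65 to 1.89) on the log2 scale, a distance that 3.07% of all genes reached. Under cGAMP the HAQ/- library held 14.3-fold less ATF3 and 8.63-fold less FOS than the WT/- library, and 8 of the 10 genes were at least 1.5-fold lower there, where 19.0% of all genes were. That comparison includes the 4.19-fold and 4.34-fold differences already present in the controls. With 1 library per condition, a difference in response between lines leaves no residual degrees of freedom and was not tested.

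BATF2, a gene that interferons induce in many cell types, had the largest fold of the 10. It went from 8.84 to 566 normalized counts in WT/HAQ, from 16.8 to 852 in WT/- and from 9.60 to 239.7 in HAQ/-. All 3 cGAMP values were far above all 3 control values. The folds were 64.0 (log2 interval 5.11 to 7.07), 50.7 (4.99 to 6.43) and 25.0 (3.77 to 5.67), and their width reflects the 10 to 18 control counts. At most 0.199% of all genes had a fold as high in any 1 line. Among treated libraries, HAQ/- held 3.55-fold less BATF2 than WT/- (log2 ratio -1.83, interval -2.06 to -1.61), while the log2 folds of the 2 clones differed by 1.02 (-0.08 to 2.13), within counting error. The log2 fold of the parent exceeded that of HAQ/- by 1.36 (0.10 to 2.61), beyond counting error.

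BATF3 was at 120.2 and 133 in WT/HAQ, 155 and 232 in WT/-, and 96.8 and 108 in HAQ/-. Its log2 folds were 0.15 (-0.20 to 0.50), 0.59 (0.27 to 0.90) and 0.16 (-0.24 to 0.57). The WT/- fold lay at the 1.5-fold limit and the other 2 were within counting error. BATF, the third gene of the family, had 2 to 8 counts per library and was not compared.

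Across the 3 lines, a treatment term with line as a block asked which genes moved the same way in each. By edgeR's quasi-likelihood test with Benjamini-Hochberg adjustment over 15126 genes, BATF2 rose and FOSB, FOSL1 and JUND fell, where 2.27% of all genes were called higher and 0.959% lower at an adjusted p below 0.05. BATF2 rose by 5.50 ± 0.23 (log2 fold ± SE, n = 3 lines, adjusted p = 0.00278, edgeR). FOSB fell by 1.64 ± 0.12 (adjusted p = 0.00757), FOSL1 fell by 1.35 ± 0.15 (adjusted p = 0.0178) and JUND fell by 0.44 ± 0.06 (adjusted p = 0.0384) on the log2 scale in the same edgeR test. FOSL2 (log2 fold -0.77 ± 0.19, adjusted p = 0.0939) and JUN (-0.43 ± 0.13, adjusted p = 0.133) had lower values in 3 of 3 lines and did not pass the edgeR threshold. Nor did ATF3 (-0.76 ± 0.33, adjusted p = 0.233), JUNB (0.29 ± 0.13, adjusted p = 0.242), BATF3 (0.31 ± 0.15, adjusted p = 0.273) and FOS (-0.34 ± 0.21, adjusted p = 0.393) in that edgeR test. Lines that differ in STING1 stand in for replicates here, with 2 residual degrees of freedom. The edgeR test also draws each gene's variance towards that of other genes, so its p-values do not rest on the 3 lines alone. An exact two-sided sign-flip permutation test over 3 pairs cannot go below p = 0.25.

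Which of the 10 genes passed depended on single lines. The folds of the 4 called genes had the same direction in all 3 lines, so leaving out a line could not reverse it. With each line left out in turn, the log2 fold was 5.28 to 5.78 for BATF2, -1.78 to -1.51 for FOSB, -1.55 to -1.20 for FOSL1 and -0.46 to -0.42 for JUND. Without WT/- no gene in the whole table was called by edgeR's quasi-likelihood test (953 higher and 947 lower at an unadjusted p below 0.05), and the adjusted p of BATF2 and FOSB was 0.105, that of FOSL1 0.268 and that of JUND 0.335. Without WT/HAQ the edgeR adjusted p was 0.00533 for BATF2 and 0.0170 for FOSB, but 0.0507 for FOSL1 and 0.149 for JUND. Without HAQ/- all 4 remained called and FOSL2 (adjusted p = 0.00145, edgeR) and JUN (adjusted p = 0.0303, edgeR) passed as well. Without the line as a block, BATF2 passed (adjusted p = 0.0285, edgeR) and the 3 genes that fell did not, with FOSB at 0.475, FOSL1 at 0.108 and JUND at 0.169.

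Genes around AP-1 were followed as lists. Over all genes, 11.6% were higher and 13.7% lower at an unadjusted edgeR p below 0.05, and DESeq2 called 5.10% higher and 3.85% lower. Of 12 other leucine zipper partners, 10 were compared, and by edgeR's quasi-likelihood test with Benjamini-Hochberg adjustment 0 rose and 2 fell, while DESeq2 called 4 lower and 0 higher and the unadjusted edgeR p gave 4 and 0. The genes that fell were MAFF (log2 fold -0.77, adjusted p = 0.0303, edgeR) and MAFG (-0.51, adjusted p = 0.0444, edgeR), small MAF proteins without an activation domain, the latter named after its values were seen. Of 16 MAP kinase genes and 6 genes of the serum response factor and its cofactors, none passed the edgeR test at the adjusted threshold. At an unadjusted p below 0.05, 4 kinase genes were lower and 1 higher and 1 serum response gene was higher, and DESeq2 called 2 kinase genes lower and 1 serum response gene higher. The kinase gene with the lowest edgeR adjusted p was MAP2K3, an activator of p38, at 2601 and 878 in WT/HAQ, 3007 and 1354 in WT/-, and 2032 and 1474 in HAQ/- (edgeR adjusted p = 0.0690). MAP3K5 (log2 fold -0.67) and the serum response genes ELK4 (0.71) and SRF (0.23) did not pass. None of 4 genes for ubiquitin ligases of JUN, ITCH and DET1 among them, passed the edgeR test, where 1 was lower at an unadjusted p below 0.05 and DESeq2 called that number lower.

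All 6 of the other immediate-early genes followed (EGR1, IER2, NR4A1, ZFP36, DUSP1 and KLF6) had the control order of the FOS genes, highest in WT/- and lowest in HAQ/-, which 22.7% of all genes had. Over the parental control, the median log2 ratio of 6 such genes was 0.64 in WT/- and -0.95 in HAQ/-, where the medians of all genes were 0.00 and -0.02. With cGAMP, 1 of the 6 fell and 0 rose by edgeR's quasi-likelihood test, and DESeq2 gave the same counts. At an unadjusted p below 0.05, 3 were lower and 0 higher. The gene that fell was NR4A1, a nuclear receptor, at 895 and 368 in WT/HAQ, 1223 and 566 in WT/-, and 467 and 262 in HAQ/- (log2 fold -1.08, adjusted p = 0.0142, edgeR). EGR1, a zinc finger factor, had log2 folds of -0.35, -0.28 and -1.46 in WT/HAQ, WT/- and HAQ/-, with its lowest fold in the line where FOS also had its lowest.

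Of 11 known AP-1 targets 10 were compared, and 1 rose and 1 fell by edgeR's quasi-likelihood test with Benjamini-Hochberg adjustment, where 2.27% and 0.959% of all genes did. At an unadjusted p below 0.05, 1 was higher and 4 were lower. Their median log2 fold was -0.49 in the parent, -0.22 in the WT/- clone and 0.02 in the HAQ/- clone, where the medians of all genes were -0.01, 0.00 and -0.01. In these lines 4, 3 and 0 targets were lowered at least 1.5-fold, against 12.3%, 8.79% and 5.79% of all genes, and 1 was raised in each, against 12.9%, 11.9% and 6.77%. PLAUR, the urokinase receptor, went from 1397 to 18895 normalized counts in WT/HAQ, from 1102 to 14450.2 in WT/- and from 1356 to 4837 in HAQ/- (log2 fold 3.12 ± 0.44 SE, adjusted p = 0.0347, edgeR). PLAU, which encodes urokinase, the ligand of that receptor, went from 10840.4 to 5532, from 19912 to 9713 and from 8293 to 6081 (-0.82 ± 0.13 SE, adjusted p = 0.0458, edgeR). The receptor and its ligand thus moved in opposite directions. Among the interferon regulatory factors that pair with BATF proteins in immune cells, IRF1 rose (log2 fold 1.31 ± 0.20 SE, adjusted p = 0.0444, edgeR), at 3252 and 9248 in WT/HAQ, 10982 and 18074 in WT/-, and 1307 and 4292 in HAQ/-. IRF4 and IRF8 had at most 10 counts in any library.

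The genes most like each factor were found by the root mean square difference of centred log2 levels over the 6 libraries, among the 12087 genes whose mean count reached 50. For FOS these were ANKRD33B (0.208), EGR1 (0.224) and NEDD9 (0.260). For ATF3 they were FOS (0.344), EGR1 (0.354) and TNFRSF9 (0.376), so FOS was the gene nearest to ATF3 of all those searched. FOSL1 was nearest to ARID3B (0.138), ERRFI1 (0.161) and KAAG1 (0.165), which had their 3 highest levels in the control libraries as FOSL1 did. JUN was nearest to HIST1H2AC (0.0726), ATF7IP (0.0850) and SMG1P5 (0.0890), the last being a pseudogene whose reads may be shared with near-identical copies. BATF2 was nearest to DDX58 (0.266), ZC3HAV1 (0.336) and USP18 (0.384), which interferons are known to induce. Among the 10 genes themselves the closest pairs were FOSL2 and JUN (0.248), JUNB and BATF3 (0.282), and FOS and ATF3 (0.344). These measures describe 6 libraries and carry no test.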

How the data were processed

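RNA was sequenced once for each of 3 SKOV3 lines with and without cGAMP, as paired-end TruSeq mRNA libraries. The authors deposited estimated counts per gene, and their processing notes name STAR, RSEM, GRCh38 and hg38. Versions, annotation release and strand setting are not given in the sources used here. Of the deposited estimated counts above 0, 79.9% to 81.1% per library were exactly whole numbers, and all values were rounded before testing. All 6 value columns were used.

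Counts were scaled by TMM in edgeR 4.0.16 (R 4.3.3), with factors of 0.940 to 1.05, and genes were compared where the mean count reached 10. Within a line, folds of normalized counts have exact (Clopper-Pearson) 95% intervals and a floor of 3 counts, without a test, and a gene was called raised or lowered at 1.5-fold. Differences of log2 folds have normal intervals from the counts. Reads without molecular identifiers are not independent molecules, so intervals cover counting error only. Treatment was tested with glmQLFTest with line as a block, adjusted by Benjamini-Hochberg at 0.05. The lines share a parent. The p-values rest on the spread between lines, with each gene's variance drawn by edgeR towards a trend over all genes. The line pairs the libraries by design, since control and cGAMP cells come from the same line. Lengths were exon unions of GENCODE 44. Scripts were tested on simulated data.

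All 10 genes were named by rule. The members, lists and rules were chosen with earlier results of these data known. From each list the 2 genes with the largest absolute mean log2 fold were named, and lists of 3 genes in full, except 1 gene that is not reported here. Alternatives were DESeq2 1.42.0, its size factors, totals only, thinned libraries, other count minimums, floors, prior counts and folds, no block, and leaving out each line. The near-CRE search, the transcript length and the scaling of the control order were added after seeing the data.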

Additional observations from a re-analysis of the deposited data

Results flagged for a closer look

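ATF3 had cGAMP folds of opposite direction in different lines. Its log2 fold was -0.90 in WT/HAQ and -1.58 in HAQ/- but 0.18 in WT/-. The direction in WT/- was the same under DESeq2 size factors (0.17), totals only (0.12) and thinned libraries (0.19). With 1 library per condition the difference between lines was not tested, and genotype and clone cannot be told apart.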

How the results depend on the processing

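No direction was reversed under any alternative run among folds by line and control ratios of at least 1.5-fold, or in the treatment test. Smaller folds and ratios were not checked for a change of direction. Among member folds by line, 145 of the values stayed within their counting interval and 5 moved beyond it, all in WT/- under totals only. Among control ratios 136 stayed and 14 moved. The control order held in 9 of the 10 genes under DESeq2 size factors, totals only and thinned libraries. Scaling by totals only moved the all-gene median to 0.10 on the log2 scale for HAQ/- against WT/- controls.

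Counts of members depended on the fold. At a fold of 2, 1 was raised and 3 were lowered with cGAMP in WT/HAQ (7.38% and 5.36% of all genes), 1 was raised in WT/- (6.58%), 1 was raised in the WT/- control (5.72%) and 3 were lowered in the HAQ/- control (3.88%) against the parent. At a fold of 1.2, 2 were raised in HAQ/- (15.5%). In WT/-, 1 member was raised, BATF3 missing the limit, with DESeq2 size factors, totals only, a prior count of 2 or a mean count of at least 1. After thinning, 1 member was raised in the HAQ/- control.

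In the treatment test, leaving out each line gave 0 to 1 members called higher and 0 to 5 lower, with 0 to 1309 genes higher and 0 to 1312 lower in the whole table, where all lines gave 344 and 145. Without WT/- both were 0. Without the line as a block, 58 genes were higher and 4 lower, and 0 members were lower. DESeq2 called 772 higher and 583 lower, and a mean count of at least 1 gave 583 and 431. The causes were not tested. Of the tests of single members, 68 stayed on their side of the threshold, 9 lost a call and 3 gained one, among these FOSL2 under DESeq2 (adjusted p = 0.00580).

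With the longest transcript as length, the FOS to JUN ratio was 0.939 and 0.386 in WT/HAQ, 0.869 and 0.488 in WT/-, and 0.786 and 0.436 in HAQ/-, for control and cGAMP. Low counts limit BATF2 controls and BATF3.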
